A study of Arabidopsis thaliana with 33 samples.

Results

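Leaves of Arabidopsis thaliana harvested at midday were set against leaves harvested at midnight, in plants grown at ambient CO2 with limiting nitrogen. The comparison used 4 midday arrays and 4 midnight arrays, chosen by their sample titles alone, out of 33 arrays in the series. Each array measured RNA of the youngest fully expanded leaves of ecotype Col-0 on day 35 after germination. All 8 samples came from plants kept at 370 ppm CO2 and fed a nutrient solution with 0.25 mM NH4NO3. The cycle was 10 h light at 21 °C and 14 h dark at 18 °C, so light, temperature and time of harvest cannot be told apart. In the order of the series every midnight sample comes before every midday sample, in all conditions. A difference in the handling of the arrays therefore cannot be told apart from time of harvest either. The rest of the series holds leaves at 6 mM NH4NO3 (ample nitrogen) or at 750 ppm CO2 (elevated), of which 9 arrays at ambient CO2 and ample nitrogen and 8 arrays at elevated CO2 and limiting nitrogen are used below for comparison. The labels do not say whether replicates were separate plants, pools or repeat hybridisations, so the p-values below measure a spread that may be technical. Unless another fit is named, limma p-values use the spread within groups over all 33 arrays of this series only. Exact permutation p-values use the 8 arrays compared.

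In a leaf the day is the time of photosynthesis: light-harvesting proteins feed the photosystems, carbon is fixed in the Calvin-Benson cycle, and part of it is stored as starch in the chloroplast. At night the starch is broken down to maltose and glucose, which are exported and respired, and a growing leaf turns to this reserve and to recycling of its own material when it runs low. Transcripts of many of these enzymes, of transporters and of regulators follow the day through the circadian clock, light and sugar signals.

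Each array's values were deposited as log2 signals with a median of 0, so a difference of 1 is a 2-fold difference relative to the median probe set. A probe set is the group of probes that reads 1 transcript, and brightness is not compared between probe sets. The 8 arrays correlated with r of 0.969 to 0.982 within midday, 0.968 to 0.981 within midnight and 0.880 to 0.903 between midday and midnight over 12772 probe sets. The measured leaf markers lay above the median of every array. RCA, rubisco activase, read 6.46, 6.46, 6.35 and 6.54 at midday, against 6.04, 5.89, 6.08 and 5.85 at midnight. PRK (phosphoribulokinase) and SBPASE (sedoheptulose bisphosphatase) lay between 4.55 and 5.93 on all 8 arrays. FMA, the stomatal lineage factor FAMA and the one measured marker of epidermal cells, averaged -1.82 ± 0.18 at midday and -1.67 ± 0.22 at midnight (SD, n = 4 each), and it did not pass the test (difference -0.15, limma adjusted p = 0.642; it was at -0.89 with an adjusted p of 0.0394 on the hybridisation spike-in scale and at 0.14 on the poly-A spike-in scale, both described below). No fixed marker of vascular, root or floral cells was among the named probe sets, so their part in the results was not tested.

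Midday and midnight leaves differed in 35.5% of the measured probe sets by limma with Benjamini-Hochberg adjustment. Of 12772 probe sets, 2375 were higher at midday (18.6%) and 2158 were lower (16.9%) at an adjusted p under 0.05, and 5624 had an unadjusted p under 0.05. Among the called ones, 873 were at least 2-fold higher (6.84%) and 717 at least 2-fold lower (5.61%). At 8-fold, 52 were higher and 13 were lower. All 4 midday arrays lay above all 4 midnight arrays for 2701 probe sets (21.1%), and below them for 2500 (19.6%). In whole leaves, fewer cells of a type and less RNA per cell cannot be told apart.

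The size of these differences was set against probe sets for foreign RNA that is added to each sample and so carries no leaf signal. The 14 probe sets of the hybridisation spike-ins (BioB, BioC, BioD and Cre, which enter with the labelled target in the standard protocol) were all higher at midday, by 0.387 to 0.995. Their mean per array was 2.96, 2.95, 2.76 and 3.01 at midday, against 2.29, 2.13, 2.33 and 1.96 at midnight (exact two-sided permutation test, p = 0.0286, the smallest that 70 splits of 8 arrays allow). The groups did not overlap for 12 of the 14. The 23 probe sets of the poly-A spike-ins (Dap, Lys, Phe and Thr, which enter before labelling) ran the other way in 21 cases, with differences from -0.85 to 0.10, and their array means averaged 0.29 lower at midday (exact permutation p = 0.143). A further 17 control probe sets for Arabidopsis actin, GAPDH, ubiquitin and ribosomal RNA were all higher at midday on the median scale, by 0.41 to 1.19 and by 0.78 on average, close to the mean of 0.74 for the hybridisation spike-ins.

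Of the 37 spike-in probe sets 0 passed the exact permutation test after adjustment over all 37 (smallest adjusted p = 0.0705), although 15 had an unadjusted p under 0.05. No probe set can go below 0.0286 in this test, so with 15 at that floor the adjusted p could not be smaller. The 0 calls therefore do not show that the spike-ins were alike. In limma with the control probe sets in the fit, 15 were called. Only 1646 of the 12772 leaf probe sets (12.9%), 906 higher and 740 lower, moved further than the largest spike-in difference, and 64.6% of the calls were smaller than it. Scaling the arrays on the hybridisation spike-ins lowered every difference by 0.74 and left 354 probe sets higher (2.77%) and 5993 lower (46.9%). Scaling on the poly-A spike-ins, an alternative chosen after seeing the data, raised every difference by 0.29 and left 2916 higher (22.8%) and 647 lower (5.07%). Quantile normalization left 2171 higher (17.0%) and 2402 lower (18.8%). The 354 higher and 647 lower probe sets were called in the same direction on all 3 scales, and 966 probe sets called higher on the median scale fell below 0 on the hybridisation scale. Which scale is nearer to RNA per leaf was not tested, and every direction below is relative to the median probe set unless a spike-in scale is named. The shares over all probe sets given above for each scale apply to every list count below on that scale, also where they are not repeated.

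**Figure D1:**
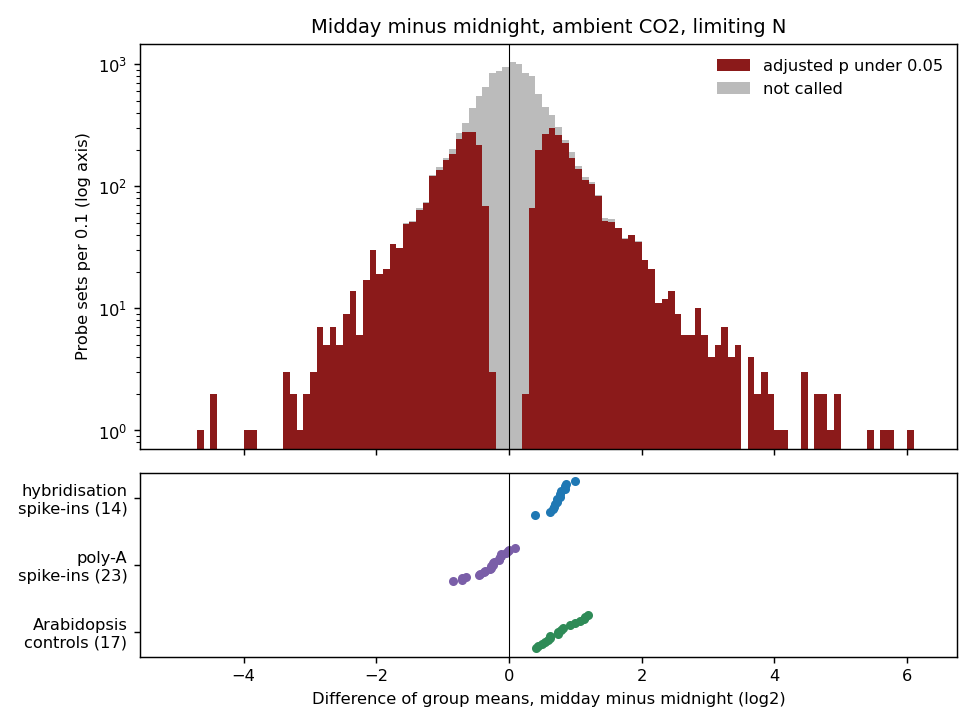
Differences between midday and midnight group means (log2) for 12772 leaf probe sets (upper panel, counts per bin of 0.1 on a log axis, dark bars for those called by limma) and for the control probe sets (lower panel, 1 point each). The hybridisation spike-ins sit between 0.387 and 0.995 and the poly-A spike-ins between -0.85 and 0.10, while leaf probe sets reach 6.01 and -4.60.

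The largest changes lay far outside the range of the spike-ins. The 13 largest rises and 3 largest falls over all probe sets are not named by 1 gene in the annotation and are given no gene here. Among named genes, the 12 largest rises and 12 largest falls with no overlap between the groups were taken. All 24 were also called in the same direction on the hybridisation scale and on the poly-A scale. Those scales shift every difference by -0.74 or 0.29, and the genes were picked for differences far larger than that. Their direction could therefore not change, and the calls on these scales are no separate support. Of the 24, 20 carry only a locus code in the annotation and are given without a role.

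AT5G35970 rose most among named genes. It read 4.12, 4.09, 3.90 and 3.94 at midday, against -0.13, -0.44, -0.29 and -0.73 at midnight. Every midday array was far above every midnight array, and the difference was 4.41 (SE 0.20, 21.2-fold, limma adjusted p = 4.85e-17). CYP71B26, a cytochrome P450, read 2.47, 2.29, 2.19 and 2.2 at midday, against -1.36, -1.81, -1.99 and -2.46 at midnight. Its midday arrays lay close together and its midnight arrays were more spread, and the difference was 4.19 (SE 0.21, 18.2-fold, adjusted p = 9.28e-16). IAGLU, which joins glucose to the auxin indole-3-acetic acid, read 1.36, 1.22, 1.03 and 1.32 at midday, against -2.51, -2.18, -2.75 and -3.34 at midnight. The groups again stood clear of each other (difference 3.93, SE 0.27, 15.2-fold, adjusted p = 7.23e-13).

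Cpn60beta2, a beta subunit of the chloroplast chaperonin that folds proteins such as rubisco, read 2.81, 2.98, 3.88 and 3.60 at midday, against 0.17, -0.37, -0.04 and -0.12 at midnight. Its midday arrays varied more than its midnight arrays, without overlap, and the difference was 3.41 (SE 0.35, 10.6-fold, adjusted p = 5.42e-09). The other 8 leading rises were AT5G57345 (3.92), AT2G23840 (3.85), AT5G15950 (3.73), AT3G01060 (3.69), AT3G57020 (3.66), AT5G43150 (3.40), AT1G21500 (3.30) and AT3G15310 (3.27, listed in the annotation as a pseudogene), with adjusted p-values of 2.42e-11 or less.

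AT3G59350 fell most among named genes. It read -2.62, -2.5, -2.13 and -2.19 at midday, against 1.11, 2.16, 1.22 and 1.75 at midnight. All midday arrays were low and the midnight arrays were more spread, for a difference of -3.92 (SE 0.24, 15.1-fold lower, adjusted p = 8.71e-14). AT1G26665 fell by 3.24 (SE 0.23), AT5G62900 fell by 3.24 (SE 0.23) and AT2G30930 fell by 3.30 (SE 0.34). AT5G51570 had midday values of -1.34, -0.95, -1.78 and -1.99, against 1.49, 1.56, 1.54 and 1.47 at midnight. The midnight arrays lay close together and all midday arrays were well below them (difference -3.03, SE 0.24).

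PYE (POPEYE), a bHLH transcription factor of the iron deficiency response, read -1.48, -1.38, -1.62 and -2.21 at midday, against 1.17, 0.94, 1.12 and 1.11 at midnight. It was low on all midday arrays, by 2.76 (SE 0.22, 6.77-fold lower, adjusted p = 3.14e-11). The remaining leading falls were AT1G47400 (-2.92), AT5G39410 (-2.90), AT4G19390 (-2.89), AT1G22890 (-2.88), AT2G25730 (-2.85) and AT4G27130 (-2.66). Of these AT1G22890 was the least even, with midday values of -2.43, -0.72, -1.31 and -3.03, and its SE of 0.48 was the largest of the 24.

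**Figure D2:**
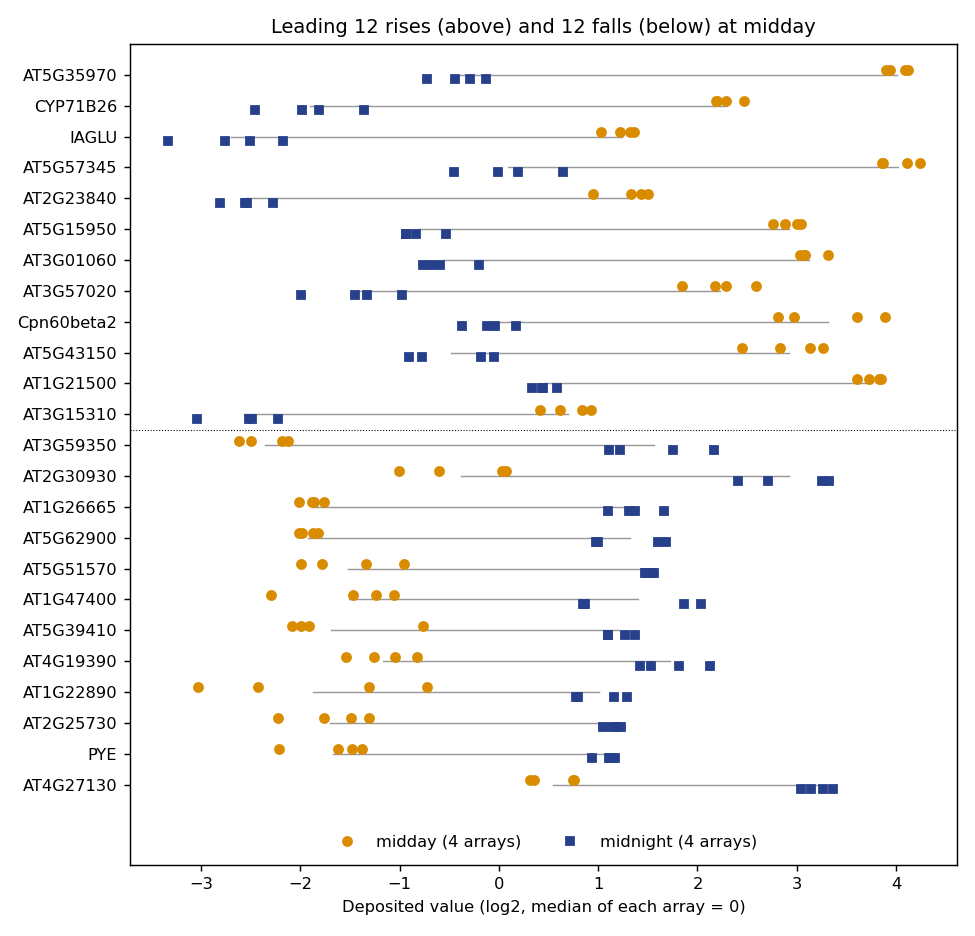
Values on each array (log2, array median 0) of the 12 named genes that rose most at midday (above the dotted line) and the 12 that fell most (below it), with midday arrays as orange circles and midnight arrays as blue squares. Grey lines join the group means. The groups do not overlap for any of the 24 genes, as the rule for choosing them required.

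The genes of photosynthesis stood mostly higher at midday on the median scale. Of the light reaction list, 10 of 55 members were measured under their own name: 8 rose and 0 fell, with a median difference of 0.77, beside 0.03 over all probe sets and 18.6% called higher. On the hybridisation scale 2 of the 10 rose and 0 fell, beside 2.77% higher and 46.9% lower over all probe sets. On the poly-A scale 8 rose, beside 22.8% higher. LHCB4.2, which encodes CP29, a minor antenna protein of photosystem II, read 6.27, 6.24, 6.15 and 6.33 at midday, against 3.57, 3.50, 3.79 and 3.25 at midnight. It was the one member that changed more than 4-fold (difference 2.72, SE 0.24, adjusted p = 3.02e-10). PSAN, a subunit of photosystem I, read 5.71, 5.69, 5.71 and 5.83 at midday, against 4.36, 4.36, 4.3 and 4.25 at midnight, and rose by 1.42 (SE 0.13). These were the 2 that stayed called on the hybridisation scale. PSBY and PSBW, small subunits of photosystem II, rose by 1.31 and 0.97, with adjusted p-values of 0.120 and 0.332 on the hybridisation scale.

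The chloroplast's own genes were followed in 68 plastid-encoded transcripts, a list formed by symbol after results were known. In it 14 rose, 1 fell and 53 did not pass, beside 18.6% higher over all probe sets, with a median difference of 0.44. On the hybridisation scale 0 rose and 12 fell, beside 2.77% higher and 46.9% lower over all probe sets. On the poly-A scale 20 rose and 0 fell, beside 22.8% and 5.07%. After quantile normalization 5 rose and 2 fell, beside 17.0% and 18.8%. The direction of the calls thus moved with the scale, as it did over all probe sets. The largest rises were psbD, the D2 core protein of photosystem II (1.32, SE 0.49), rps16, a ribosomal protein (1.25, SE 0.36), and atpI, a subunit of the ATP synthase (1.15, SE 0.40). The last missed the threshold without midday replicate 1 or 3 or midnight replicate 4 (adjusted p from 0.0593 to 0.0880). psbD read 3.51, 2.55, 2.86 and 3.15 at midday, against 1.28, 2.02, 2.04 and 1.44 at midnight; it was above midnight on every midday array, with an adjusted p of 0.0342 that lay between 0.0699 and 0.0999 when midday replicate 1 or 4, or midnight replicate 1 or 4, was left out. The one fall, ndhD of the chloroplast NDH complex (-0.69, adjusted p = 0.0414), had overlapping groups, and it missed the threshold on the poly-A scale and in 6 of the 8 fits without 1 array. Of 21 nuclear genes for the assembly of the thylakoid complexes, also listed after results were known, 9 rose and 2 fell (median 0.23). The shares over all probe sets were 18.6% higher and 16.9% lower. On the hybridisation scale 0 of the 21 rose and 7 fell, beside 2.77% and 46.9%. PSB27, which takes part in the repair and assembly of photosystem II, rose by 1.3 (SE 0.23). TROL, which holds ferredoxin-NADP reductase at the thylakoid, rose by 0.97 (SE 0.16). Neither was called on the hybridisation scale.

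Chlorophyll synthesis was represented by 8 of 26 listed genes. In this list 4 rose and 0 fell on the median scale (median 0.64), beside 18.6% higher over all probe sets. After quantile normalization 3 rose, beside 17.0%, and on the poly-A scale 6 rose, beside 22.8%. On the hybridisation scale 0 rose and 2 fell, beside 2.77% and 46.9%. The 4 that rose were HEME1 and HEME2, uroporphyrinogen decarboxylases (1.48 and 1.19), AT1G74470 (1.22), and CHLM, the methyltransferase that acts on magnesium protoporphyrin (0.81; 0.46 with an adjusted p of 0.0572 after quantile normalization). HEME1 read 2.06, 1.67, 2.31 and 2.06 at midday, against 0.77, 0.58, 0.46 and 0.39 at midnight, so the groups did not overlap. All 4 missed the threshold on the hybridisation scale, with adjusted p-values from 0.0787 to 0.867. Among plastid isoprenoid genes, LYC, lycopene cyclase, rose by 0.66 (adjusted p = 0.00388) and stood at -0.08 on the hybridisation scale.

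The few carbon fixation genes measured under their own name differed little. Of 22 listed Calvin-Benson genes 4 were measured. RCA (0.49, adjusted p = 0.0138) and SBPASE (0.61, adjusted p = 0.0281) rose, beside 18.6% higher over all probe sets. Both were below 0 on the hybridisation scale, at -0.25 and -0.13. After quantile normalization RCA was at -0.04 and SBPASE at 0.14 (adjusted p = 0.546). SBPASE read 5.50, 5.50, 5.49 and 5.49 at midday, against 5.24, 4.55, 4.82 and 4.92 at midnight, and its adjusted p lay between 0.0502 and 0.104 in 6 of the 8 fits that left out 1 array. Of 22 listed photorespiration genes 5 were measured, and 4 of these did not pass. HPR, the peroxisomal hydroxypyruvate reductase, passed narrowly (0.47, adjusted p = 0.0445), with -0.27 on the hybridisation scale and -0.07 after quantile normalization. Its adjusted p was 0.0595 to 0.135 in 7 of the 8 fits that left out 1 array.

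Of the starch genes, 3 of 17 listed for synthesis and 3 of 22 listed for breakdown were measured. Over all probe sets 18.6% were called higher and 16.9% lower. The 3 of the synthesis list rose: AT5G39790, placed in it by locus code, by 2.71 (SE 0.25), APL3, a large subunit of ADP-glucose pyrophosphorylase, which makes the glucose donor for starch, by 0.79 (SE 0.25), and SBE2.2, a branching enzyme, by 0.67 (SE 0.20). AT5G39790 read 0.47, 0.33, -0.08 and 1.00 at midday, against -1.7, -2.90, -2.46 and -2.06 at midnight. It alone of the 3 stayed called on the hybridisation scale, where SBE2.2 was at -0.07 and APL3 at 0.05. APL3 also missed the threshold without midday replicate 1 (adjusted p = 0.0556) or midnight replicate 3 (0.0546), and SBE2.2 without midnight replicate 2 (0.0576). PWD at AT5G26570, the phosphoglucan water dikinase that primes starch granules for breakdown, read 0.25, -0.02, -0.04 and 0.50 at midday, against 2.74, 2.64, 2.5 and 2.47 at midnight. Every midday array was far below every midnight array (difference -2.41, SE 0.21, 5.33-fold lower, adjusted p = 1.20e-10), and the fall held on both spike-in scales. DPE1, which handles short glucans from starch, fell by 0.65 (adjusted p = 0.0382) with overlapping groups; it missed the threshold on the poly-A scale, and its adjusted p was 0.0601 to 0.117 in 6 of the 8 fits that left out 1 array. AMY1, an alpha-amylase, differed by 0.23 and did not pass (adjusted p = 0.732).

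Among 7 measured genes of sucrose synthesis and sugar transport, 2 rose and 3 fell, beside 18.6% higher and 16.9% lower over all probe sets. The list's median of 0.20 thus describes no member that changed. TMT1, which loads glucose and other sugars into the vacuole, read -0.07, -0.40, 0.22 and 0.01 at midday, against 1.87, 2.05, 2.1 and 2.08 at midnight. It fell on every midday array, by 2.08 (SE 0.17, adjusted p = 4.07e-11). Its paralog TMT2 read -0.18, -0.25, -0.38 and -0.12 at midday, against -1.27, -1.06, -1.47 and -1.53 at midnight. TMT2 thus rose, by 1.1 (SE 0.24, adjusted p = 0.000469), while its adjusted p on the hybridisation scale was 0.375.

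SWEET11, a sucrose exporter of the phloem loading route, read 2.62, 3.23, 3.01 and 2.80 at midday, against 4.67, 4.27, 4.59 and 4.54 at midnight, and fell by 1.6 (SE 0.18). SWEET17, a fructose transporter of the vacuole membrane, read 2.78, 2.26, 2.09 and 2.75 at midday, against 0.30, 1.01, 0.09 and 0.10 at midnight, and rose by 2.1 (SE 0.31). Both kept their direction and call on the hybridisation and poly-A scales. Of 6 measured SWEET genes in all, 2 rose and 2 fell, beside 18.6% higher and 16.9% lower over all probe sets. The other rise was SWEET13 (1.22, adjusted p = 0.0195), with adjusted p-values of 0.337 on the hybridisation scale (difference 0.48), 0.0789 without midday replicate 2, and 0.0835 without midnight replicate 2. ATSPS4F, a sucrose phosphate synthase, read 2.32, 2.59, 2.44 and 2.1 at midday, against 4.24, 3.53, 3.93 and 3.76 at midnight, and fell by 1.5 (SE 0.29, adjusted p = 0.000135).

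**Figure D3:**
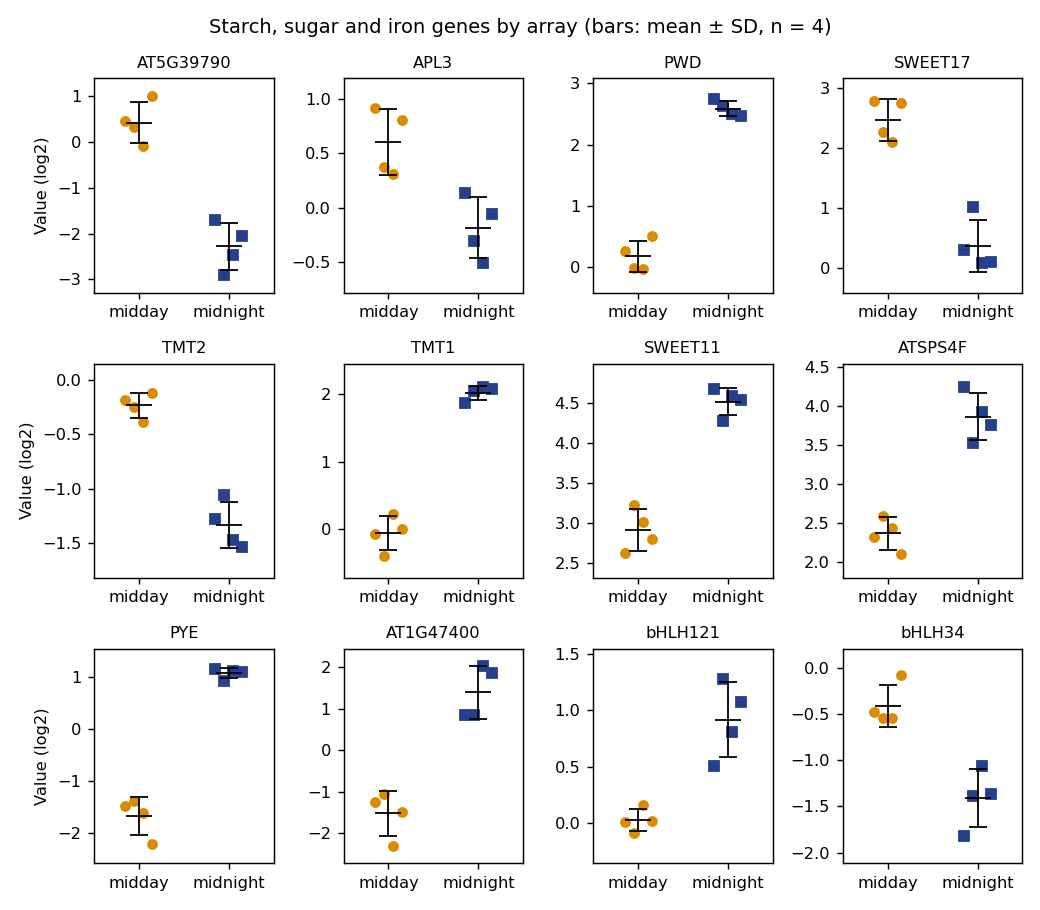
Values on each array (log2, each panel with its own axis range) of starch and sugar genes (upper rows) and of 4 genes of the iron list (bottom row), with midday left and midnight right in each panel, and bars for mean ± SD of 4 arrays. In every panel the groups are separate: AT5G39790, APL3, SWEET17, TMT2 and bHLH34 are higher at midday and PWD, TMT1, SWEET11, ATSPS4F, PYE, AT1G47400 and bHLH121 are lower.

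Of 18 measured genes of the tricarboxylic acid cycle list, 6 fell and 0 rose, beside 16.9% lower and 18.6% higher over all probe sets, and their median was -0.24. The list is broader than the cycle, and its falls include the cytosolic cICDH and LTA3, a pyruvate dehydrogenase subunit (-0.46). On the poly-A scale 3 fell and 0 rose, beside 5.07% lower and 22.8% higher over all probe sets. On the hybridisation scale 15 fell, beside 46.9% lower. cICDH, the cytosolic NADP-dependent isocitrate dehydrogenase, read 3.53, 3.79, 3.74 and 3.75 at midday, against 5.41, 5.10, 5.09 and 4.89 at midnight. It was lower on every midday array than on any midnight array (difference -1.42, SE 0.18, adjusted p = 3.80e-07). IDH-V, a catalytic subunit of the mitochondrial NAD-dependent isocitrate dehydrogenase, fell by 0.97 (SE 0.10), AT5G65750 fell by 1.17 (SE 0.21) and AT5G08300 fell by 0.77 (SE 0.13); the last missed the threshold on the poly-A scale. Of the alternative NAD(P)H dehydrogenases, NDC1 rose by 0.78, NDB1 fell by 0.75 and NDB2 did not pass (0.34, adjusted p = 0.425). The hybridisation scale put NDC1 at 0.04, and the poly-A scale gave NDB1 an adjusted p of 0.139.

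Of 13 measured redox genes, 6 rose, 0 fell and 7 did not pass (median 0.50), beside 18.6% higher over all probe sets. On the hybridisation scale 4 rose and 1 fell, beside 2.77% and 46.9%. On the poly-A scale 10 rose and 0 fell, beside 22.8% and 5.07%. VTC4, a phosphatase of the ascorbate pathway, read 3.26, 2.93, 2.93 and 3.23 at midday, against 0.87, 0.49, 0.64 and 0.76 at midnight, and rose by 2.40 (SE 0.21, 5.28-fold, adjusted p = 1.68e-10). The glutathione reductases GR of the organelles and GR1 of the cytosol rose by 1.7 (SE 0.20) and 1.6 (SE 0.14), and TRXF2, a thioredoxin f that activates Calvin-Benson enzymes in the light, rose by 1.61 (SE 0.17). SAPX, the stromal ascorbate peroxidase, read 1.69, 1.53, 2.02 and 1.08 at midday, against 0.51, 0.80, -0.07 and -0.07 at midnight, and rose by 1.29 (SE 0.26), with 0.55 and an adjusted p of 0.252 on the hybridisation scale. In 4 methionine sulfoxide reductases, which repair oxidised methionine and were listed after results were known, 2 rose: MSRB5 by 2.57 (SE 0.30) and MSRB6 by 2.02 (SE 0.34).

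Of 26 listed glucosinolate genes 3 were measured, and these rose, beside 18.6% higher over all probe sets. BCAT4, which starts the chain elongation of methionine, rose by 2.83 (SE 0.31). AT2G31790 rose by 1.69 (SE 0.19) and UGT74B1, a glucosyltransferase of the core pathway, by 1.2 (SE 0.17). BCAT4 read 4.57, 4.51, 4.01 and 4.90 at midday, against 1.39, 2.31, 1.59 and 1.37 at midnight, with a wide gap between the groups. UGT74B1 missed the threshold on the hybridisation scale (adjusted p = 0.248). In sulfate assimilation APS3, an ATP sulfurylase, rose by 1.35 and SIR, sulfite reductase, rose by 1.00, while the ATP sulfurylase APS4 fell by 0.73. Neither rise was called on the hybridisation scale, and the fall was not called on the poly-A scale.

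Several enzyme families that modify small molecules were read by symbol after results were known, and their counts stand beside 18.6% higher and 16.9% lower over all probe sets. Their counts on the hybridisation scale stand beside 2.77% higher and 46.9% lower. Of 20 UDP-glycosyltransferases 10 rose and 2 fell (median 0.51), against 1 and 6 on the hybridisation scale, with UGT88A1 at 1.63 (SE 0.13) and UGT71B1 at -1.15 (SE 0.20). In 10 cytochromes of the CYP71B family 3 rose and 0 fell, against 2 and 3 on the hybridisation scale, among them CYP71B26 and CYP71B24 (1.8, SE 0.30). Of 7 glutathione transferases 3 rose, GSTU20 by 2.2 (SE 0.23), GSTU23 by 1.63 (SE 0.15) and GSTU16 by 1.12 (SE 0.19), and the other 4 lay between -0.19 and -0.10. On the hybridisation scale 2 of the 7 rose, without GSTU16, and 4 fell.

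Nitrogen genes were almost absent from the named probe sets, with 2 of 31 listed. Both were placed in the list by locus code, and they moved apart. AT1G25550 read -0.13, 0.24, 0.32 and -0.30 at midday, against 1.66, 1.8, 1.92 and 1.84 at midnight, and fell by 1.77 (SE 0.23). AT1G68670 read 1.46, 1.14, 1.07 and 2.0 at midday, against 0.43, 0.54, 0.71 and 0.59 at midnight, and rose by 0.85 (SE 0.21), with 0.11 on the hybridisation scale.

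Iron regulators were examined because PYE and AT1G47400 were among the leading falls, so the list was made after their values were seen. Iron is needed in quantity for the photosystems, and bHLH factors adjust its uptake and use. Of 8 measured of 15 listed, 4 fell and 1 rose, beside 16.9% lower over all probe sets, and the 4 include PYE and AT1G47400 themselves. AT1G47400, placed in the list by locus code, read -1.24, -1.06, -2.29 and -1.47 at midday, against 0.85, 0.86, 2.03 and 1.86 at midnight. The groups were well apart, although the arrays of each were spread (difference -2.92, SE 0.34, adjusted p = 6.14e-08). The activators bHLH121 and bHLH104 fell by 0.89 and 0.50, at adjusted p-values of 0.0748 and 0.635 on the poly-A scale. bHLH104 also missed the threshold without midday replicate 4 or midnight replicate 2 or 3 (adjusted p from 0.0969 to 0.0983). bHLH34, of the same subgroup as bHLH104, rose by 0.99 (SE 0.18), at 0.25 on the hybridisation scale, and ILR3 did not pass (0.10, adjusted p = 0.685).

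Of 31 core clock genes listed, 1 was measured under its own name: AT5G52660, placed by locus code, rose by 0.76 (SE 0.21, adjusted p = 0.00600), with 0.02 on the hybridisation scale. Among 7 clock-associated genes read after results were known, 2 rose, 1 fell and 4 did not pass. Over all probe sets 18.6% were higher and 16.9% lower. The rises were AT5G52660 again, which is in both lists, and XCT (XAP5 CIRCADIAN TIMEKEEPER) by 0.71. The fall was TKL (TIC-LIKE) by 0.56. XCT stood at -0.03 on the hybridisation scale and TKL was not called on the poly-A scale. HYH, the homolog of the light signalling factor HY5, read -1.3, -1.1, -1.35 and -1.56 at midday, against -1.82, -2.12, -1.83 and -2.2 at midnight. Its groups did not overlap, yet with the spread taken over all 33 arrays it did not pass (0.67, adjusted p = 0.0613), and in a fit to the arrays compared alone it did (adjusted p = 0.00319).

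Of 15 measured genes of the dark and starvation list 3 fell and 0 rose, beside 16.9% lower over all probe sets, with a median of -0.26. On the hybridisation scale 10 fell, beside 46.9% lower over all probe sets. ATG8D, 1 of the ATG8 proteins that coat autophagosomes, read -1.42, -1.25, -1.23 and -1.01 at midday, against 1.17, 0.73, 1.19 and 1.09 at midnight, and fell by 2.27 (SE 0.20, 4.84-fold lower). It was the one member of the list called on the poly-A scale. None of the other measured ATG8 genes in the list passed on the median scale, with differences from -0.55 (ATG8E) to 0.31 (ATG8F). In the tubulin and cell wall list 4 of 9 fell and 1 rose, beside 16.9% lower and 18.6% higher over all probe sets. TUB9, TUB1 and TUB7, beta-tubulins, fell by 1.26, 1.17 and 0.65. EXPA8, a wall-loosening expansin, rose by 1.38 (SE 0.34, adjusted p = 0.177 on the hybridisation scale). On the poly-A scale 1 of these falls, that of TUB9, was called. EXPA4 lay higher on all midday arrays (1.73, 1.5, 1.06 and 1.62, against 0.56, 0.64, 0.63 and 0.61 at midnight) with an adjusted p of 0.427 in the fit to all 33 arrays and 0.000839 in the fit to the arrays compared alone. Over 6 expansins, grouped after results were known, 3 rose and 2 fell, with EXPB3 at 1.71 and EXLB1 at -1.64.

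Of 13 TBL genes 3 rose and 4 fell, beside 18.6% higher and 16.9% lower over all probe sets. The family includes acetyltransferases of wall polysaccharides and was listed after results were known. On the hybridisation scale 1 rose and 7 fell, beside 2.77% and 46.9%. Among the members called on the median scale were TBL26 (2.37, SE 0.53) and TBL45 (-2.0, SE 0.33). Of 3 measured genes of the cold and heat list 1 fell and 0 rose, beside 16.9% lower and 18.6% higher over all probe sets. It was COR15B, a cold-regulated chloroplast protein (-1.19, limma adjusted p = 0.00815). Its adjusted p was 0.0908 on the poly-A scale and 0.0520 without midnight replicate 1. COR15A (-0.47, adjusted p = 0.306) and COR47 (-0.50, adjusted p = 0.505) did not pass. Cytosolic ribosomal proteins, grouped after results were known, had few calls: 4 of 40 genes of the small subunit rose and 2 fell (median 0.05), and 0 of 71 of the large subunit rose and 4 fell (median -0.03), beside 35.5% called over all probe sets. On the hybridisation scale 17 of the 40 and 45 of the 71 fell, beside 46.9% lower over all probe sets. After quantile normalization 4 and 16 fell, beside 18.8% lower. The 4 measured genes of protein folding in the endoplasmic reticulum had 0 calls.

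**Figure D4:**
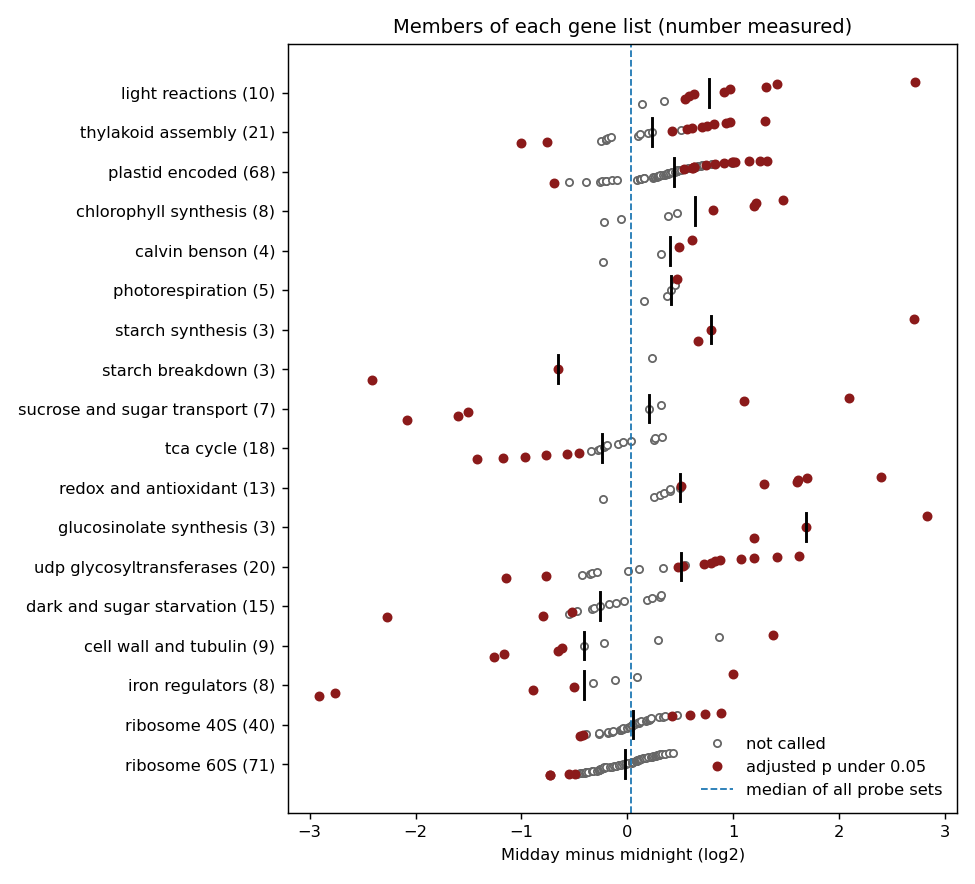
Midday minus midnight differences (log2) of the measured members of 18 gene lists, with filled points for members called by limma, open points for the others, a black bar at each list's median and a dashed line at the median of all probe sets (0.03). On this median scale light reaction genes lie to the right of the line (2 of the 10 stay called on the hybridisation spike-in scale). Members of the tricarboxylic acid cycle list, which is broader than the cycle, lie mostly to its left. Sugar transport and iron genes lie on both sides, and ribosomal genes around it.

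The same day and night difference was then read in the other conditions, which use other arrays. Over 12772 probe sets the differences here correlated with r = 0.901 with those at ambient CO2 and ample nitrogen, and with r = 0.891 with those at elevated CO2 and limiting nitrogen. This is a description across probe sets that share the array design and the median scale. Midnight samples come before midday samples in the order of the series in these conditions too. Time of harvest and array handling thus cannot be told apart there either. Of the 2375 probe sets higher at midday here, 1832 were also called higher at ample nitrogen (77.1% of those here and 71.9% of the 2547 there, which are 19.9% of all probe sets), and 1738 of the 2158 lower ones were called lower (80.5% of those here and 65.9% of the 2638 there, 20.7% of all). Against elevated CO2 1760 higher calls were shared (74.1% of those here and 73.6% of the 2391 there, 18.7% of all), and 1508 lower calls (69.9% of those here and 72.2% of the 2090 there, 16.4% of all). Of the higher ones, 2 were called lower at ample nitrogen and 2 at elevated CO2, and of the lower ones 1 and 0 were called higher. All 24 leading genes were called in the same direction in both other conditions.

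The difference of the time effect itself was tested with interaction terms. Between limiting and ample nitrogen at ambient CO2, limma called 1 of 12772 probe sets (0.00783%), with 688 at an unadjusted p under 0.05. Between ambient and elevated CO2 at limiting nitrogen it called 0 (0%), with 616 at an unadjusted p under 0.05, and 0 in each alternative fit. The one called was probe set 265897_at, which the annotation does not name. It read from -1.90 to -1.09 at midday and from -1.35 to -0.782 at midnight under limiting nitrogen, with overlapping groups and a difference of -0.59. Under ample nitrogen it read from -1.37 to -0.727 at midday and from -2.08 to -1.47 at midnight, a difference of 0.96. The limma interaction was -1.55 (adjusted p = 0.0253). It lost its call in a fit to the arrays compared alone, on both spike-in scales, and in 6 of the 8 fits that left out 1 array. Without the dimmest 30% of probe sets there were 0 calls. That fit does not test this probe set if it was among those left out, which was not checked.

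For 3 genes described above, the differences in each condition are given side by side, and none of the interactions tested for them passed. Cpn60beta2 rose by 3.41 here, by 2.60 at ample nitrogen and by 1.77 at elevated CO2, with adjusted interaction p-values of 0.946 and 0.970. AT1G47400 differed by -2.92 here and -1.55 at ample nitrogen (interaction -1.37, adjusted p = 0.780), and by -3.01 at elevated CO2. SAPX differed by 1.29 here and -0.17 at ample nitrogen (interaction 1.46, adjusted p = 0.310), and by 1.22 at elevated CO2. A missed threshold in these interactions does not show that the conditions are alike.

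**Figure D5:**
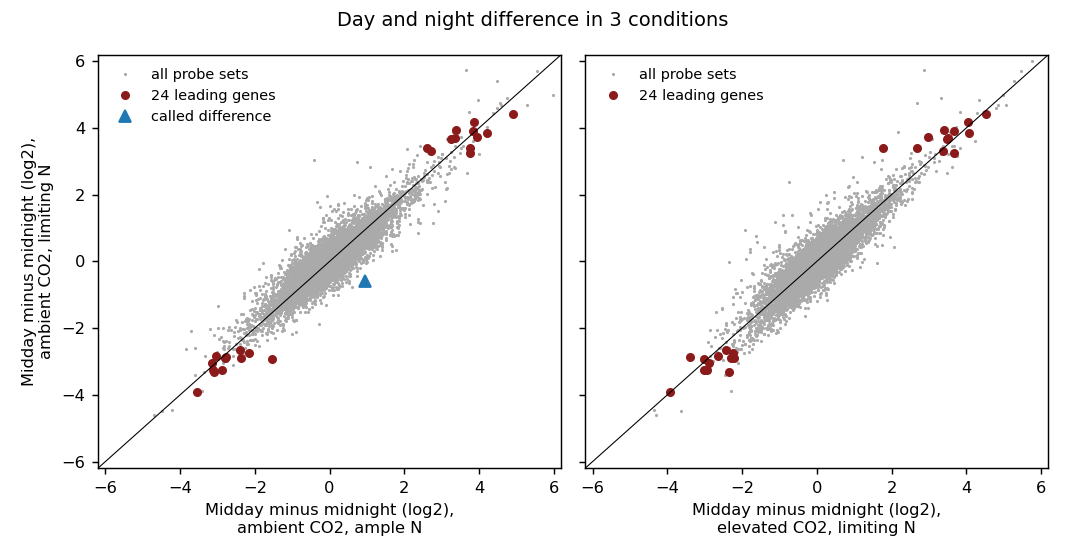
Midday minus midnight differences (log2) at ambient CO2 and limiting nitrogen (vertical axis, both panels) against those at ambient CO2 and ample nitrogen (left) and at elevated CO2 and limiting nitrogen (right), 1 grey point per probe set, with the 24 leading genes in red and the line of equality. The leading genes lie in the same quadrants in both panels, and the triangle in the left panel marks probe set 265897_at, the one called interaction (-0.59 and 0.96).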

How the data were processed

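RNA of 33 leaf samples was measured on Affymetrix ATH1 arrays. The deposited values are log2 signals with a median of 0 on each array; no source used here states how the authors corrected background, summarised probes or filtered probe sets, or with which program. The table held 12826 probe sets, 54 of them controls. Genes were named from the platform annotation joined to RefSeq TAIR10.1: 6898 probe sets name 1 gene, 272 several, and 5602 are not listed. For 45 genes with several probe sets the brightest was used.

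limma 3.58.1 (R 4.3.3) fitted 8 group means to all 33 arrays without a block, and p-values were adjusted (Benjamini-Hochberg) over 12772 probe sets. A call is an adjusted p under 0.05. Spike-ins were tested by exact two-sided permutation over 8 arrays. The fit was tested on simulated data. Alternatives were quantile normalization, scaling on hybridisation or poly-A spike-ins, leaving out the dimmest 30%, the arrays compared alone, a replicate block, array weights, a trended robust fit and leaving out each array. Named genes are the 12 largest rises and 12 largest falls without overlap, and for each list up to 4 called members and up to 2 not called. Lists and members were chosen with earlier results of these data known. The precision is limited by 4 arrays a group. As a measure of RNA quality, the log2 3'/5' ratio of 6 Arabidopsis control pairs averaged 1.82 at midday and 2.11 at midnight (exact permutation p = 0.143). By array it was 1.89, 1.81, 1.8 and 1.8 at midday, against 2.32, 1.78, 2.25 and 2.1 at midnight. Whether RNA quality bears on the day and night differences was not tested.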

Additional observations from a re-analysis of the deposited data

Results flagged for a closer look

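In 10 of 208 groups of 4 arrays examined, 1 array stood far from the other 3 (Dixon's test; chance gives about 1 in 20). At midday, replicate 4 was high for PSAN (5.825, the others 5.687 to 5.709), bHLH34 (-0.081, the others -0.548 to -0.483), UGT71B1 (0.825, the others 0.021 to 0.148), AT3G01060 (3.319, the others 3.035 to 3.082) and AT5G39410 (-0.761, the others -2.081 to -1.917). Midday replicate 3 was high for TUB7 (0.17, the others -0.296 to -0.229) and TBL45 (1.732, the others 0.336 to 0.439). At midnight, replicate 2 was low for PSBY (4.354, the others 4.804 to 4.835) and PRK (5.385, the others 5.584 to 5.604), and replicate 3 was low for NDC1 (-0.17, the others 0.438 to 0.545).

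The time effect of probe set 265897_at, which the annotation does not name, differed between limiting and ample nitrogen by -1.548 (limma interaction, adjusted p = 0.0253).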

How the results depend on the processing

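The counts of probe sets higher and lower at midday moved most with the scale. On the hybridisation spike-ins 354 were higher, 5993 lower and 3875 past 2-fold, with a median difference of -0.705, and on the poly-A spike-ins 647 were lower, with a median of 0.326; other fits stayed within 1.5 times. Leaving out 1 array gave 2041 to 2166 higher, 1870 to 1976 lower and 1544 to 1658 past 2-fold. The nitrogen interaction had 0 calls on either spike-in scale, without the dimmest 30%, with the arrays compared alone and with the replicate block, 7 with array weights, and 0 to 1 without 1 array. limma with the control probe sets called 15 spike-ins. Of 1647 recomputed values for 104 named differences, 1539 kept direction and call, 83 lost the call, 9 gained it and 16 reversed. On the hybridisation scale RCA was at -0.25, PRK -0.42, SBPASE -0.13, HPR -0.27, LYC -0.076, SBE2.2 -0.072, AMY1 -0.51, NDB2 -0.40, HYH -0.073, ILR3 -0.64 and XCT -0.035. After quantile normalization RCA was at -0.042, PRK -0.27 and HPR -0.069. FMA was at -0.89 on the hybridisation scale (adjusted p = 0.0394, a call gained) and 0.14 on the poly-A scale, and AMY1 ranged from -0.127 to 0.416 when 1 array was left out, below 0 without midday replicate 2 only. The causes were not tested, apart from the shift each scaling makes. Same-numbered arrays did not deviate together (4 correlations of 0.014 to 0.063, with 1 midday array closest to its own number), so the numbers were not taken as pairs; with the replicate block 2806 were higher, 2514 lower and 1621 past 2-fold, and 0 were called in the CO2 interaction.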
